A study of Mus musculus with 2 samples.

Results

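The 8 long noncoding RNAs described here are Malat1, Neat1, Miat, Sox2ot, Snhg11, Snhg14, Gas5 and Dlx6os1. In the brain of newborn mice they held 474 of the 219409 different positions that GLORI called as m6A in either library. Their sites were those positions of the GLORI site lists that fell inside the gene interval of each RNA on its own strand, introns included, in the GENCODE mouse release M21 models on GRCm38 (mm10). The cerebellum library listed 171 sites in these intervals and the cerebrum library 378, of 79355 and 188295 sites in all, and 75 positions were in both. GLORI converts unmethylated adenosines with glyoxal and nitrite so that sequencing reads them as guanosine. An adenosine protected by its methyl group keeps being read as A. How complete the conversion was cannot be told from the lists. The paper counted a GLORI site as high-confidence only where it overlapped a peak from m6A-seq, which pulls down RNA with an m6A antibody. That step was not applied here, so the sites are GLORI calls alone. Both libraries were poly(A)+ RNA from female F1r brain at P0 (postnatal day 0), and the methods read as if both tissues came from 1 mouse, which the labels do not state. F1r mice are the offspring of a C57BL/6J mother and a PWK/PhJ father, so every cell carried 1 genome of each strain. There were 2 libraries, 1 per tissue, and no replicate. The deposited lists hold positions only, without methylation rates, read numbers or expression, so the sequencing depth is unknown. A position missing from a list may be unmethylated, methylated below the authors' rate filter, not expressed there, or covered by too few reads. These cases cannot be told apart here. No test between the tissues was possible. Shares are given with 95% Wilson intervals, which cover counting error over sites only and treat neighbouring sites as independent.

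m6A is written into RNA in the nucleus by the METTL3 and METTL14 methyltransferase, mostly at adenosines in the motif DRACH (in DNA letters D stands for any base but C, R for a purine and H for any base but G, and the A in the middle carries the mark). In mRNA the mark is known to favour long internal exons and last exons and to be sparse next to splice junctions, where exon junction complexes sit. Long noncoding RNAs are a varied class. Malat1, Neat1 and Miat stay in the nucleus, where Malat1 gathers in nuclear speckles and Neat1 is the scaffold of paraspeckles. Miat, also called Gomafu, is known from neurons. Snhg11, Snhg14 and Gas5 are host genes, whose introns yield small nucleolar RNAs (snoRNAs). Sox2ot surrounds the gene of the progenitor factor Sox2, and Dlx6os1, which gives rise to the Evf2 transcript, lies at the Dlx5 and Dlx6 locus of forebrain GABAergic neurons.

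Malat1 and Neat1 are neighbours on chromosome 19, both unspliced in their longest isoform, and they showed the widest contrast of the 8. The commonest 5-mer among the exonic sites, GGACT, makes it visible. Malat1 itself holds 8 of the 22 exonic GGACT sites, so the shares of this 5-mer describe the contrast and do not test it. Malat1 (chr19:5795690-5802672, minus strand, 6983 nt) has 9 GGACT adenosines, and 8 of them were listed in both libraries. They run 5′ to 3′ as follows, with 10 nt on either side, the 5-mer in capitals and its central A the listed adenosine, in mm10 coordinates and at their position in the transcript, followed by the ninth, which neither library listed.
Malat1 1112, chr19:5801551-5801571: agctactaGGACTgaagtaaa
Malat1 1206, chr19:5801457-5801477: tgacaaaaGGACTtttgataa
Malat1 1248, chr19:5801415-5801435: tttgcattGGACTtgagctga
Malat1 1388, chr19:5801275-5801295: gctaggaaGGACTgaggagcc
Malat1 2465, chr19:5800198-5800218: accttcagGGACTggagctgc
Malat1 2924, chr19:5799739-5799759: tacagtggGGACTcttctgaa
Malat1 4531, chr19:5798132-5798152: ctaactaaGGACTaagtacct
Malat1 4814, chr19:5797849-5797869: gctgctcaGGACTttgcatat
Malat1 5952 (listed in neither), chr19:5796711-5796731: agcagtggGGACTaccctacc

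Neat1 (chr19:5824708-5845478, minus strand, 20771 nt) has 23 GGACT adenosines and none was listed in either library. The first pair from its 5′ end is shown here, then all 6 positions listed in Neat1, to set the 5-mers of the listed sites beside those passed over.
Neat1 349 (listed in neither), chr19:5845120-5845140: agacgggtGGACTgggggccc
Neat1 402 (listed in neither), chr19:5845067-5845087: gtggggcaGGACTaggtgcgt
Neat1 1644 (cerebrum), chr19:5843825-5843845: gttgtaaaTGACTggtgtgga
Neat1 7243 (cerebrum), chr19:5838226-5838246: ttggccaaTCACGagttttac
Neat1 18802 (cerebellum), chr19:5826667-5826687: agccttacCTACAtctcacac
Neat1 18817 (cerebrum), chr19:5826652-5826672: tcacacatACACActcactca
Neat1 18827 (cerebellum), chr19:5826642-5826662: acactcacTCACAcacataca
Neat1 18913 (cerebrum), chr19:5826556-5826576: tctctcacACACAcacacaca
The share of GGACT adenosines listed in either library was 88.9% in Malat1 (56.5% to 98.0%) and 0% in Neat1 (0% to 14.3%). Other long noncoding genes had 3.85%, which lies inside the Neat1 interval and below that of Malat1. Whether reads covered the unlisted GGACT adenosines cannot be told from the lists. The 8 Malat1 sites and the 6 Neat1 sites were chosen for printing after their positions were known.

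The number of sites differed widely among the 8 genes, and introns held many of them. Malat1 had 27 sites in the cerebellum library and 32 in the cerebrum library. Neat1 had 2 and 4. Neat1, the longer of this pair, thus had far fewer. Miat had 19 and 31, and Snhg11 had 14 and 13. Gas5 had 6 and 12. The long interval of Snhg14 held 82 and 112, and that of Sox2ot 21 and 136. For Dlx6os1 the numbers were 0 and 38. The cerebrum list was 2.37 times as long as the cerebellum list over the whole genome. Against that, the ratio of cerebrum to cerebellum sites was 2.21 over the 8 genes together, 1.19 in Malat1, 1.63 in Miat, 1.37 in Snhg14, 0.929 in Snhg11 and 6.48 in Sox2ot. Snhg11, with 14 and 13, was the only one of the 8 with fewer sites in the cerebrum list. The share of all genes with fewer sites there is not given here.

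**Figure D1:**
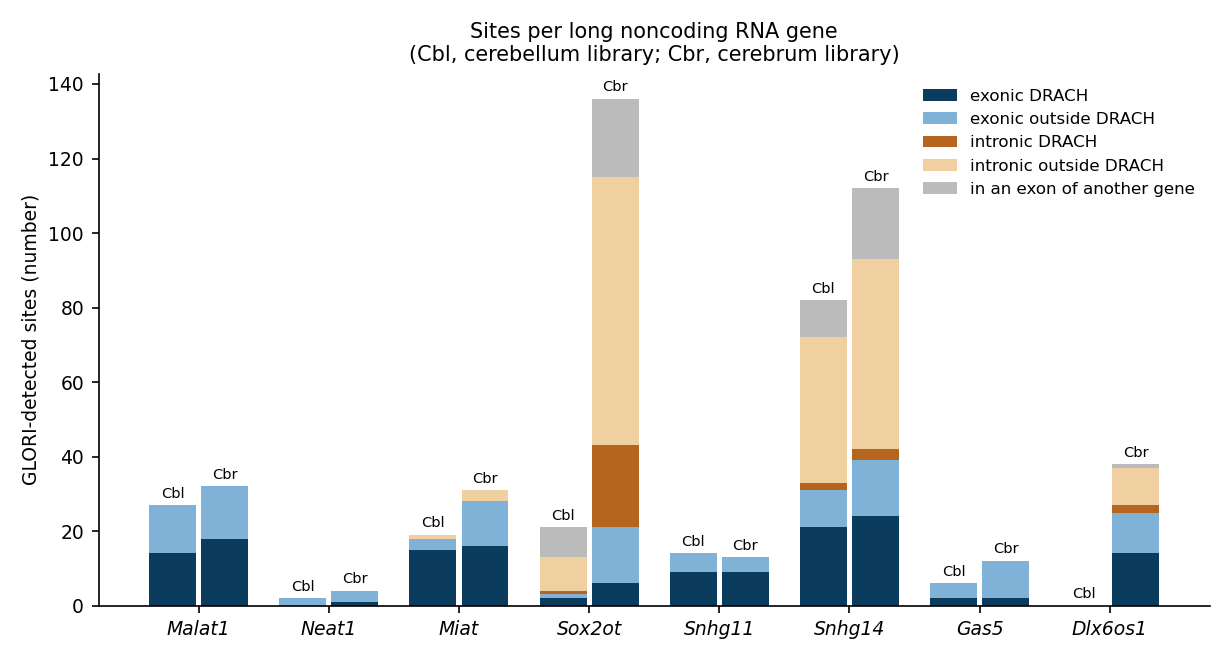
Number of GLORI-detected sites (y axis) in the interval of each of the 8 genes, with the cerebellum library on the left (Cbl) and the cerebrum library on the right (Cbr), stacked by exon or intron and by motif. Intronic sites outside DRACH are the largest class in the Sox2ot and Snhg14 columns, and the Dlx6os1 column is empty in the cerebellum and reaches 38 in the cerebrum.

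Exonic sites had the canonical motif more often than intronic sites. In the cerebellum library 101 of the 171 sites lay in exons of these genes, and 62.4% of the exonic sites were at DRACH (52.6% to 71.2%). In the cerebrum library 174 of 378 sites were exonic, with 51.7% at DRACH (44.3% to 59.0%). Exonic sites of other long noncoding genes had DRACH at 48.5% (cerebellum) and 30.5% (cerebrum), below the lower bound of the 8 genes in each library. Introns gave 52 cerebellum sites, 5.77% of them at DRACH, and 163 cerebrum sites with 16.6% at DRACH. With introns included, DRACH made up 42.7% of the cerebellum list of the 8 genes (35.5% to 50.2%), where all cerebellum sites had 62.1%. For the cerebrum list the share was 35.4% (30.8% to 40.4%), where all cerebrum sites had 46.7%.

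Positions found in both libraries were mostly at DRACH, 59 of 75. The DRACH share of all 48241 positions found in both libraries is not given here. The 59 of 75 is therefore not read as a trait of the 8 genes. Of the cerebellum sites in the 8 genes, 43.9% were also in the cerebrum list (36.6% to 51.4%), against 60.8% of all cerebellum sites. Of the cerebrum sites, 19.8% were also in the cerebellum list (16.1% to 24.2%), against 25.6% of all cerebrum sites. Exonic sites from the cerebellum were shared at 60.4% (50.6% to 69.4%) and those from the cerebrum at 35.1% (28.4% to 42.4%), where exonic sites of other long noncoding genes gave 54.3% and 16.0%. Introns, with 52 and 163 sites, shared 8. At DRACH alone, the part found in the other list was 80.8% for the cerebellum (70.3% to 88.2%) and 44.0% for the cerebrum (35.9% to 52.5%). The same part over all DRACH sites of each library is not given here.

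The genes contain different numbers of motifs, so the number of DRACH adenosines in their exons was used to set them on 1 scale. The exons of the 8 genes hold 1867 DRACH adenosines, of which the cerebellum library listed 63, or 3.37% (2.65% to 4.29%), and the cerebrum library 90, or 4.82% (3.94% to 5.89%). Exons of other long noncoding genes with at least 1 site had 0.570% and 1.22% of their DRACH adenosines listed. The part of expression in this difference was not tested, because the lists carry no expression, and for the same reason it could not be checked how abundant the 8 RNAs were. Malat1 came highest. The cerebellum library listed 11.5% of its DRACH adenosines (6.96% to 18.3%), while 14.8% were listed from the cerebrum (9.54% to 22.1%). Miat had 8.24% (5.06% to 13.2%) and 8.79% (5.48% to 13.8%), and its intervals overlapped those of Malat1. Snhg11 had 4.79% in each library (2.54% to 8.85%). Snhg14 had 4.03% (2.65% to 6.08%) and 4.61% (3.11% to 6.76%), overlapping Snhg11. Gas5 stood at 2.30% in each library, 2 of its 87 adenosines, and Sox2ot at 0.816% (0.224% to 2.93%) and 2.45% (1.13% to 5.24%). Neat1 was lowest in the cerebrum, with 0 of 403 adenosines listed in the cerebellum (upper bound 0.944%) and 1 of 403 in the cerebrum, which is 0.248% (0.0438% to 1.39%). Both Neat1 intervals include the share of the other long noncoding genes in the same library, so Neat1 is not set apart from those. The intervals of Malat1 and Neat1 were far apart in both libraries. For Dlx6os1, 0 of 119 were listed from the cerebellum (upper bound 3.13%) against 11.8% from the cerebrum (7.14% to 18.8%). Among the 8 it was the only gene whose intervals from the libraries did not overlap. The share of other long noncoding genes with such a gap is not given here.

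**Figure D2:**
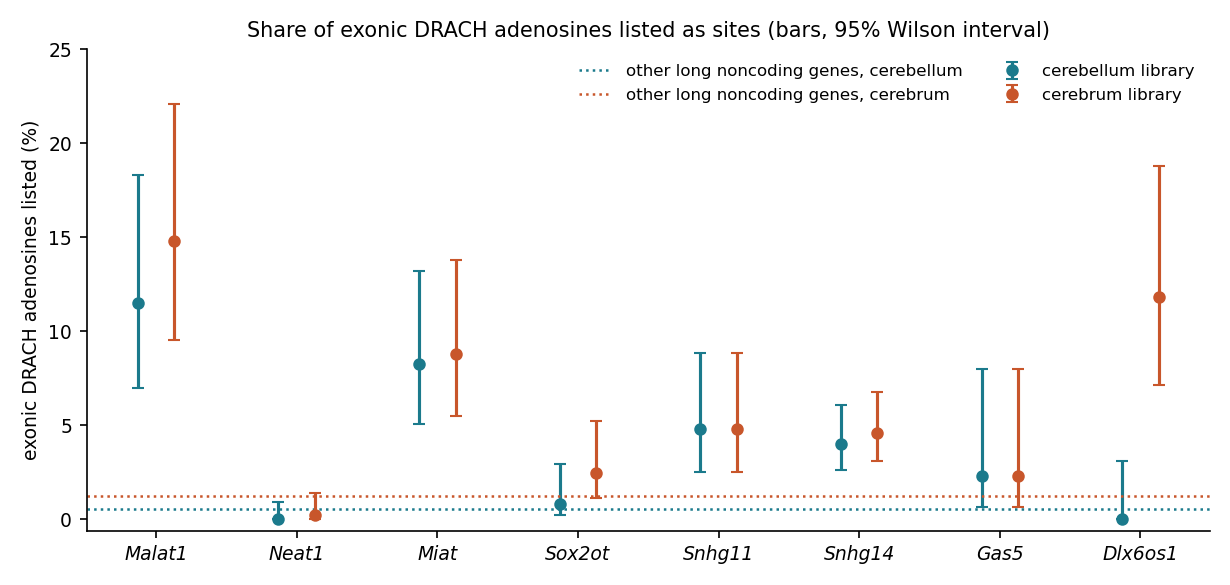
Share of exonic DRACH adenosines listed as sites (y axis, percent) in each of the 8 genes, in the cerebellum and the cerebrum library. Points are shares, bars 95% Wilson intervals, and dotted lines the shares over other long noncoding genes with a site (0.570% and 1.22%). Malat1 and Miat are well above the lines in both libraries and Dlx6os1 in the cerebrum. Both points of Neat1 are below the lines, but its bars include them.

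Among the motifs, GGACT was listed most often in the 8 genes. In either list were 22 of its 99 exonic adenosines, or 22.2% (15.2% to 31.4%), against 3.85% of GGACT adenosines in the other long noncoding genes. GAACT followed with 14 of 101, or 13.9% (8.44% to 21.9%), and AGACT with 10 of 96, or 10.4% (5.76% to 18.1%), where the other genes had 3.37% and 3.39%. GGACA had 12 of 123 listed (9.76%). At the other end, none of 89 AAACC and none of 62 TAACC adenosines was listed, and AAACA, the most frequent motif of these exons, had 3 of 193 (1.55%). The order of the 5-mers was alike in the other genes, where the same 3 motifs came first and TAACC last. GGACT also varied widely between the RNAs. Besides 8 of 9 in Malat1 and 0 of 23 in Neat1, either list held 6 of 20 in Miat, 4 of 13 in Snhg11, 3 of 4 in Dlx6os1, 1 of 17 in Snhg14, 0 of 10 in Sox2ot and 0 of 3 in Gas5.

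Malat1 had its DRACH sites in the 5′ and middle parts of the RNA. All 18 DRACH sites of either library lay between positions 1112 and 4814 of 6983. The last 2169 nt held none, though they contain 39 of the 122 DRACH adenosines. Only 1 of those 39 is at GGACT, and the part of the motif mix in this pattern was not tested. Whether reads covered those 2169 nt cannot be told from the lists. With the transcript divided into 3 equal parts, 5′, middle and 3′, the cerebrum had 7, 10 and 1 DRACH sites and the cerebellum 6, 7 and 1, where the DRACH adenosines themselves divide as 39, 43 and 40. The cerebrum list held all 14 DRACH sites of the cerebellum list and 4 more. Outside DRACH, 5 positions were shared, of 13 from the cerebellum and 14 from the cerebrum.

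Sites in Malat1 lay close together in places. Of its cerebellum sites, 15 of 27 had another within 50 nt, and 12 of 32 did so in the cerebrum. Positions 3594, 3605 and 3633 formed a run of 3 sites within 40 nt, all shared by both libraries and inside a short annotated RNA model (Gm27694) within Malat1, and the DRACH pair in it was as follows.
Malat1 3605, chr19:5799058-5799078: ttgatgaaAAACAgtgaagat
Malat1 3633, chr19:5799030-5799050: tcatctcaAAACTgcttttac
Over the 8 genes, AAACT had 3 of 107 adenosines listed in either library and AAACA, as given above, 3 of 193. Shared sites outside DRACH are illustrated by the 2 nearest the 5′ end, the first of which departs from the motif only in its last base.
Malat1 1978, chr19:5800685-5800705: gttttgtaAGACGttgtagtt
Malat1 2363, chr19:5800300-5800320: gggtggggGAAACgttttttt
The second belongs to a run of 3 adjacent listed adenosines, 2362 to 2364, of which 2 were in both libraries. None of these 3 was at DRACH. A further run without DRACH, 3 sites from 958 to 976, had no shared member.

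Neat1 carried almost no sites at canonical motifs over its 20771 nt. Its only DRACH site, TGACT at position 1644, was in the cerebrum list, and 19127 nt downstream of it with 371 DRACH adenosines were without a DRACH site. Of the other 5 positions, 4 lay between 18802 and 18913 in a stretch rich in CA dinucleotides, as the sequences printed above show, 2 of them from each library and none shared. The stretch from 7244 to 18801, 11558 nt with 234 DRACH adenosines, held no site at all. Whether reads covered it was not tested, since the lists give no coverage. Poly(A)+ RNA was sequenced, and the long Neat1 isoform, which spans the whole interval, is known to end without a poly(A) tail, so coverage of its 3′ part in particular cannot be told from these lists.

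Miat (chr5:112213228-112229395, minus strand), whose longest isoform has 7 exons and 9163 nt, had most of its sites in the last exon. That exon is 7008 nt long and held 17 of 18 exonic cerebellum sites and 24 of 28 cerebrum sites, with all 20 DRACH sites and all 11 shared sites. The first 2282 nt of the isoform had no DRACH site and contain 33 DRACH adenosines, 5 of them at GGACT. The 3′ part of the isoform, the last of 3 equal lengths, held 9 of 15 cerebellum DRACH sites and 9 of 16 cerebrum ones, against 63 of its 179 DRACH adenosines. All 11 shared sites were at DRACH, and 5 of the 6 listed GGACT adenosines were among them. The 3 shared DRACH sites with the most listed neighbours are printed, the last pair from a run of 4 DRACH sites within 58 nt.
Miat 2430, chr5:112219951-112219971: tcccatgtGGACTggaatcct
Miat 7650, chr5:112214731-112214751: tgctgtgaGAACTgcttaccc
Miat 7672, chr5:112214709-112214729: cgggcttaGGACTgactgtag
Outside DRACH, Miat had 3 and 12 exonic sites, none shared.

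**Figure D3:**
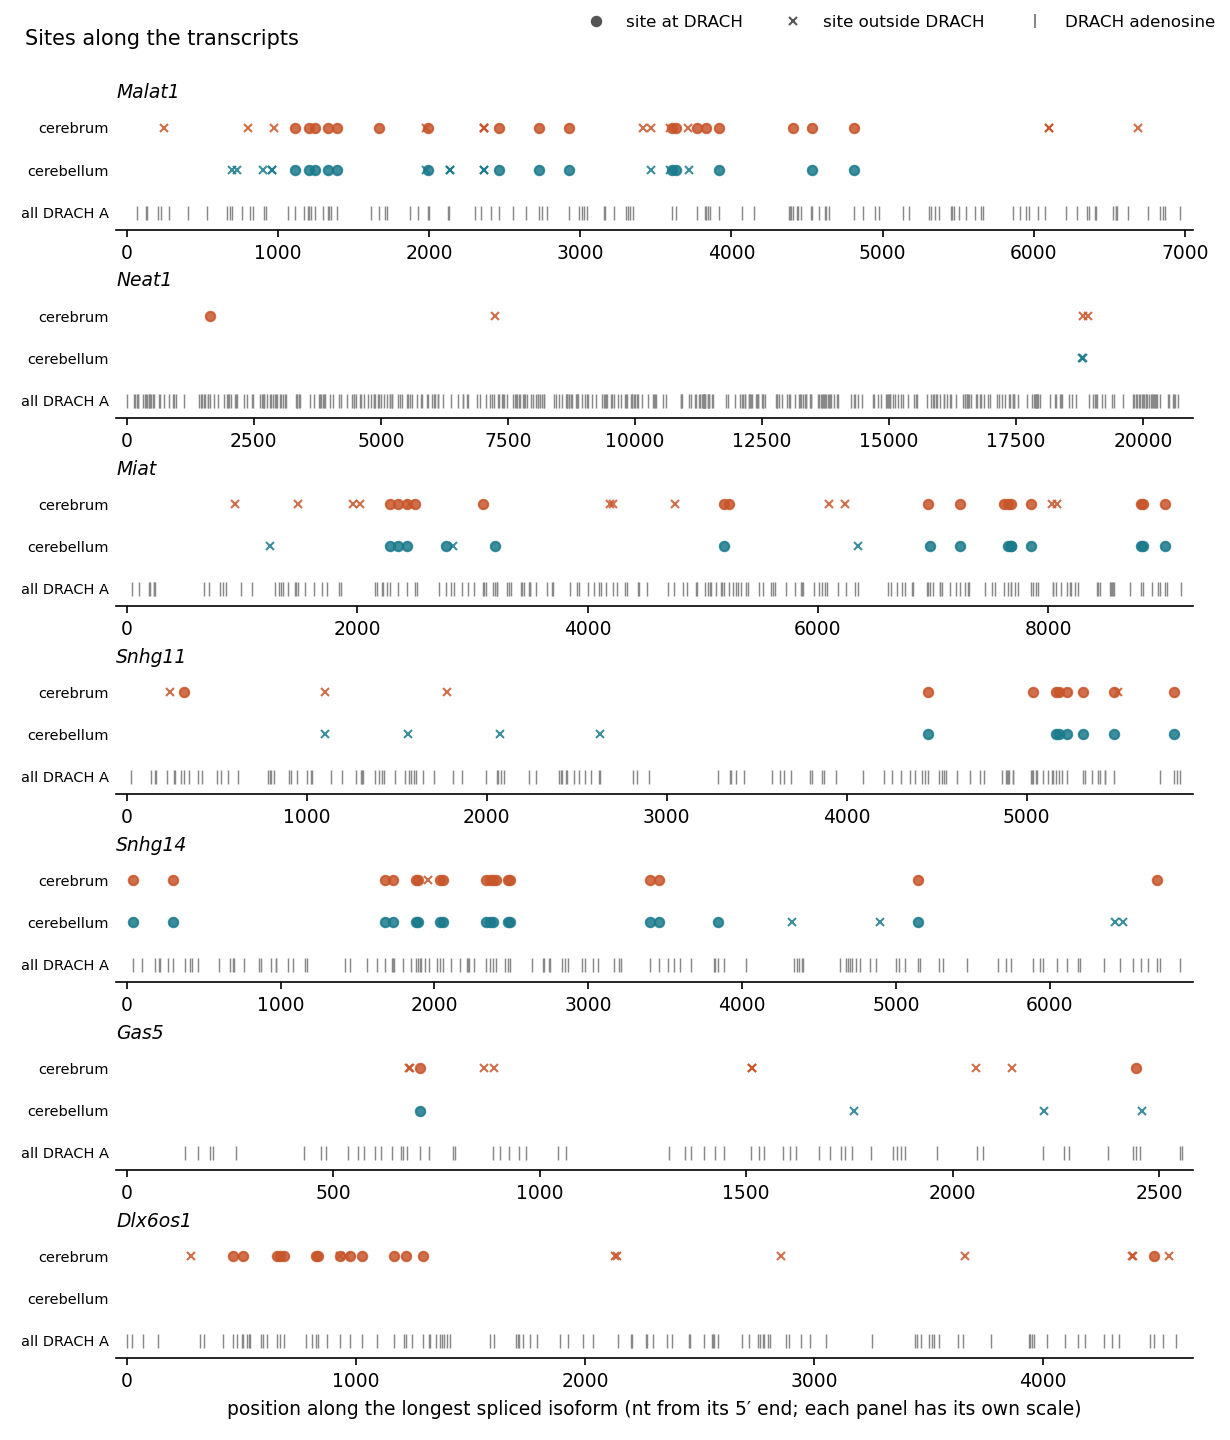
Position of each listed site along the longest spliced isoform (x axis, nt from the 5′ end, each panel with its own scale) of 7 of the 8 RNAs, in the cerebrum and the cerebellum library, above all DRACH adenosines of the isoform (ticks). Circles are sites at DRACH and crosses sites outside it. DRACH sites of Malat1 stop at position 4814, those of Snhg11 gather from 4449 onwards, those of Dlx6os1 lie mostly before 1296, and Neat1 is almost empty.

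Of the snoRNA host genes, Snhg11 (chr2:158375638-158386145, plus strand) had most of its DRACH sites near the 3′ end. The annotation types it as protein coding, though it is named and studied as a noncoding host gene. Its last exon, 5207 nt of the 5864 nt isoform, held all 7 DRACH sites that both libraries listed on it, between positions 4449 and 5819. In the 3′ part were 7 of the 9 exonic cerebellum DRACH sites and 8 of 9 from the cerebrum, whereas 50 of the 130 DRACH adenosines of the isoform lie there. The other 2 cerebellum sites, at 1940 and 2537 nt from the start of the gene, were in exons outside this isoform. The middle part had none in either library, against 34 DRACH adenosines. Positions 321 to 4448 of the isoform, without a DRACH site, hold 80 DRACH adenosines, 6 of them at GGACT. A run of 3 shared DRACH sites spanned 64 nt.
Snhg11 5161, chr2:158385432-158385452: tcaagccaAGACTttggggaa
Snhg11 5181, chr2:158385452-158385472: agcaagaaGGACCtgatactg
Snhg11 5224, chr2:158385495-158385515: atgtttacTGACTgtatttca

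Snhg14 (chr7:59307924-59975759, minus strand) is the paternally expressed host RNA of the imprinted Prader-Willi and Angelman region. It spans 667836 nt, its introns carry long arrays of snoRNA genes, and its 3′ end runs antisense to Ube3a. The lists do not give the allele a site came from. At 1 intronic cerebrum position mm10 has no A. Its exons held 31 cerebellum and 39 cerebrum sites, and 19 positions were shared, all of them at DRACH. Introns held 41 and 54 sites, of which 2 and 3 were at DRACH, and 7 positions were shared, none at DRACH. The first 66.8 kb of the interval had 36 cerebellum and 34 cerebrum sites, 18 of them shared, and 19 and 20 of them at DRACH. From 601.1 kb to the end, the cerebrum list had 35 sites and the cerebellum list 11, only 1 of them in both, with 3 and 1 at DRACH.

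Along the 12-exon isoform of 6861 nt that opens the gene, most DRACH sites of Snhg14 were in both lists. The cerebellum listed 17 DRACH sites on it and the cerebrum 18, with 16 in both. Exons 1, 3 and 5 held 4, 4 and 5 of these shared DRACH sites and the last exon 3. Exon 5 is 260 nt long with 7 DRACH adenosines, of which the cerebellum listed 5 and the cerebrum 6. It contains a run of 4 DRACH sites within 64 nt, 3 of them shared.
Snhg14 2335, chr7:59970460-59970480: tgttgcatGAACActttcagg
Snhg14 2358, chr7:59970437-59970457: tcataataGAACTcagctaat
Snhg14 2378, chr7:59970417-59970437: ttagatagAGACTggaatgtt
Repeats touch part of these counts. For 9 of the 167 different sites in Snhg14, the 51 nt around the position occur again in the gene once A is read as G, so reads there could belong to another copy. Exons of other annotated genes on the strand, among them 12 snoRNA genes, held 28 sites, 1 of which is also among the 9.

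Gas5 (chr1:161034422-161038539, plus strand), a small host gene whose snoRNAs sit in most of its introns, had 6 and 12 exonic sites with 2 in both libraries. Only 2 in each library were at DRACH. The shared DRACH site is GGACA at position 711, at the 3′ end of a run of 3 listed positions from 684.
Gas5 711, chr1:161035866-161035886: agagtagtGGACAgaagggat
It lies in a snoRNA model (Gm22489) that the first exon of the longest isoform, 2382 nt long, includes. The other shared position is in Snord80, outside DRACH. In all, 6 of the 16 Gas5 positions were inside such snoRNA or small RNA models, so the molecule that carried them cannot be told.

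Sox2ot (chr3:34104270-34682619, plus strand) gave most of its sites in introns and most in the cerebrum. Of its 136 cerebrum sites 94 were intronic, 21 were in its own exons and 21 in exons of other genes on the strand. The cerebellum had 10, 3 and 8. At DRACH were 22 of the 94 intronic cerebrum sites and 1 of the 10 from the cerebellum, and 1 intronic position was shared. Sox2, which lies in an intron of Sox2ot on the same strand, accounted for 22 of the 149 different sites, 19 of them in the cerebrum and 8 in the cerebellum, with 14 at DRACH, and an mRNA of Sox2 would give the same positions as an unspliced Sox2ot. Along the 578350 nt interval, 26 cerebrum sites fell between 115.7 and 173.5 kb and 47 beyond 520.5 kb, where Sox2 lies. The exonic DRACH sites shared by both libraries were these.
Sox2ot, chr3:34611772-34611792: atctcttcAGACTaaattaac
Sox2ot 489, chr3:34675759-34675779: actaagaaAGACCtcattttc
The first lies outside the longest isoform, so it has no transcript position.

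Dlx6os1 (chr6:6820189-6871592, minus strand) was listed in the cerebrum and not in the cerebellum. It had 25 exonic sites there, 14 of them at DRACH, and 12 intronic sites with 2 at DRACH. Sites in the cerebrum list alone were common among long noncoding genes: 67.7% of the other long noncoding genes with an exonic site had none in the cerebellum. With as many or more exonic cerebrum sites as Dlx6os1, however, there were 16 other genes, of which 1 had none in the cerebellum. Along its 4608 nt isoform of 3 exons, 13 of 14 DRACH sites lay in the 5′ part, 0 in the middle and 1 in the 3′ part, against 42, 40 and 26 DRACH adenosines. The stretch from 1296 to 4485, without a DRACH site, holds 71 DRACH adenosines, 0 of them at GGACT. The part of the motif mix was not tested. Of its 24 sites on the isoform, 15 had another within 50 nt, or 62.5% (42.7% to 78.8%). The isoform has 108 DRACH adenosines, a denser set in which 89.8% had another that near, so the shares cannot be compared for clustering. Of the 3 DRACH sites with the most neighbours, chosen after their values were seen, the first opens a run of 3 DRACH sites within 32 nt.
Dlx6os1 655, chr6:6824486-6824506: agtgtcttGAACActggtccc
Dlx6os1 933, chr6:6824208-6824228: aaatcaagGAACAatcaaaat
Dlx6os1 975, chr6:6824166-6824186: ttgctgcaGGACTtctgtttt
Genes that mark the forebrain were counted beside it. All 8 forebrain genes reported here (Emx1, Emx2, Neurod6, Tbr1, Lhx2, Dlx1, Dlx2 and Bcl11b) had more sites in the cerebrum. The whole cerebrum list was 2.37 times as long, and the share of all genes with more sites in the cerebrum is not given here. Emx1, Tbr1, Dlx1 and Dlx2 had 0 in the cerebellum and 3, 20, 35 and 12 in the cerebrum. Emx2 had 1 and 7, Neurod6 1 and 18, Lhx2 8 and 11, and Bcl11b 24 and 68. A hindbrain list of 10 genes had 63 and 65 sites. In it, 2 genes had more in the cerebellum, En2 with 9 and 0 and Barhl1 with 12 and 1, and 3 had more in the cerebrum, Zic4 with 4 and 20, Zic1 with 19 and 22 and Cbln1 with 16 and 19. Gbx2 had 3 in each, and Atoh1, Pax2, Hoxa2 and Lmx1a had 0 in both. The part of such tissue markers in the Dlx6os1 result was not tested, and a scarcer RNA and a less methylated RNA cannot be told apart.

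**Figure D4:**
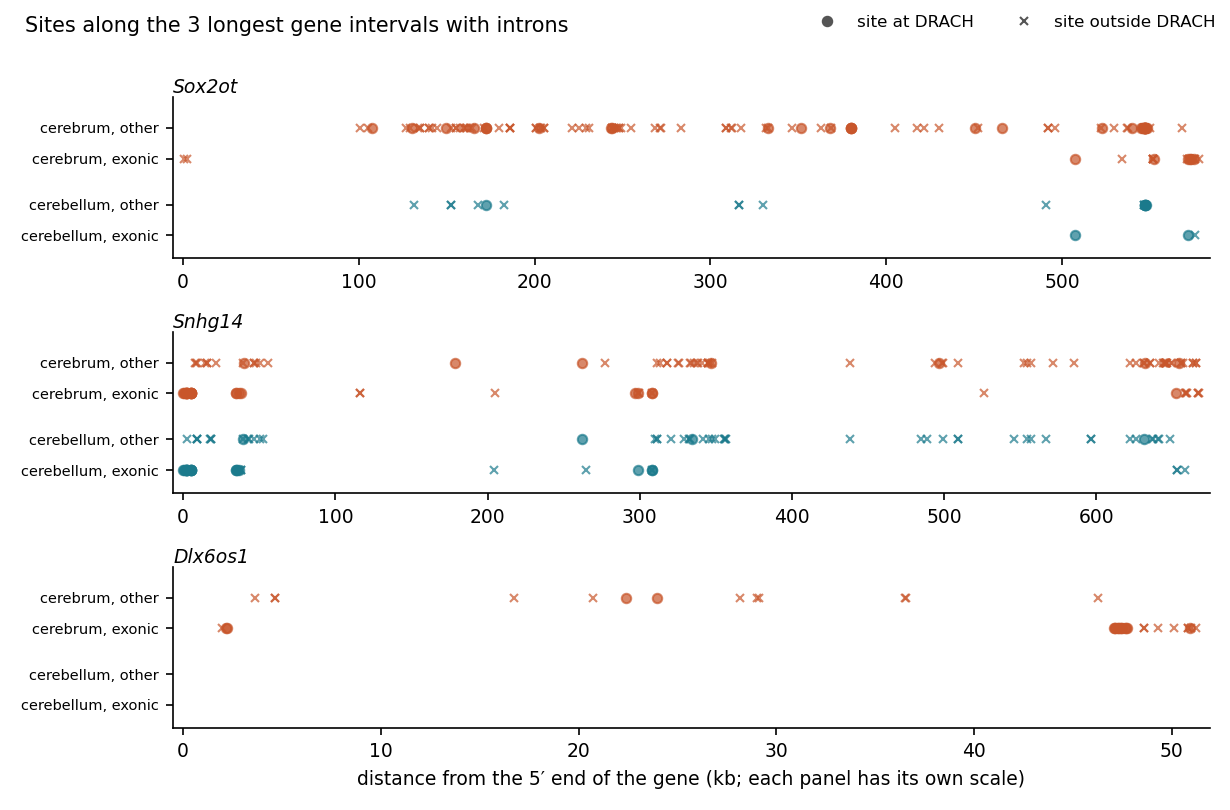
Position of each listed site by its distance from the 5′ end of the gene (x axis, kb, each panel with its own scale) for Sox2ot, Snhg14 and Dlx6os1, split by library and by exons of the gene against all other positions. Circles are sites at DRACH and crosses sites outside it. Most exonic circles of Snhg14 stand in the first 66.8 kb in both libraries, Sox2ot crosses are spread over its introns mainly in the cerebrum, and Dlx6os1 has points in the cerebrum alone.

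Over all 8 longest isoforms, the share lying in the 3′ part had overlapping intervals for listed sites and for DRACH adenosines. The 3′ part held 32.9% of 85 cerebellum sites (23.9% to 43.5%), 27.9% of 136 from the cerebrum (21.1% to 36.0%) and 31.5% of the DRACH adenosines (28.9% to 34.2%). That sum joins opposite patterns, since Miat and Snhg11 had most DRACH sites in the 3′ part, and Malat1, Snhg14 and Dlx6os1 in the others. Having another site of the same library within 50 nt applied to 42.4% of the cerebellum list (32.4% to 53.0%) and 47.8% of the cerebrum list (39.6% to 56.1%). Of the 1191 DRACH adenosines of these isoforms, 86.1% (84.1% to 88.0%) had another DRACH adenosine within that distance. They are far more numerous than the sites, which alone raises their share. The shares therefore do not show whether sites cluster or keep apart. In all, 11 runs of at least 3 listed positions of either library were found, 3 in Malat1, 2 each in Miat and Dlx6os1, and 1 each in Neat1, Snhg11, Snhg14 and Gas5.

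Splice junctions were compared in the 6 spliced RNAs. Within 100 nt of a junction of the longest isoform, 8 of 89 DRACH adenosines (8.99%) were listed from the cerebellum and 13 (14.6%) from the cerebrum. Farther away the shares were 5.72% and 8.32% of 577. Snhg14 made up all 8 cerebellum sites near a junction and 8 of the 13 cerebrum ones, with 36 DRACH adenosines there (22.2% listed in each library), against 10.3% and 11.5% of its 87 others. Dlx6os1 had 3 of 13 in the cerebrum. Miat had 0 of 11 near a junction in both libraries and 15 and 16 of 168 elsewhere. Predicted pairing did not separate listed from passed-over adenosines as a whole: the median probability of being unpaired, from folding 50 nt on either side, was 0.631 over 85 listed DRACH adenosines (quartiles 0.181 and 0.960) and 0.629 over 1106 others (0.156 and 0.940).

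Outside DRACH, the exons of the 8 genes gave 38 cerebellum and 84 cerebrum sites, of which 7 were in both lists. Of these, 5 and 14 kept the C after the A and differed from DRACH in 1 other base. Sites that departed from the motif only at that C were not counted among them. Intronic sites outside DRACH numbered 49 and 136, and 26 and 54 of them had T after the A. Soft-masked repeat sequence held 23 of the 49 and 39 of the 136. Listed positions 1 to 3 nt apart formed 4 pairs in the cerebellum and 14 in the cerebrum, a spacing at which the motif itself does not allow both to be at DRACH.

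The 8 genes were ranked by exonic sites among 2240 genes with an exonic site, themselves and other long noncoding genes together. Snhg14 ranked 6 by the cerebellum list and 9 by the cerebrum list, Malat1 8 and 11, Miat 13 and 16, and Snhg11 15 and 40. Gas5 was at 32 and 44 and Sox2ot at 68 and 27. Neat1 ranked 129 and 213. Dlx6os1 was at 19 by the cerebrum list. Length and expression both enter such a rank. The exonic sites of the 8 rose by a ratio of 1.72 from the cerebellum to the cerebrum list, and those of other long noncoding genes by 3.39.

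**Figure D5:**
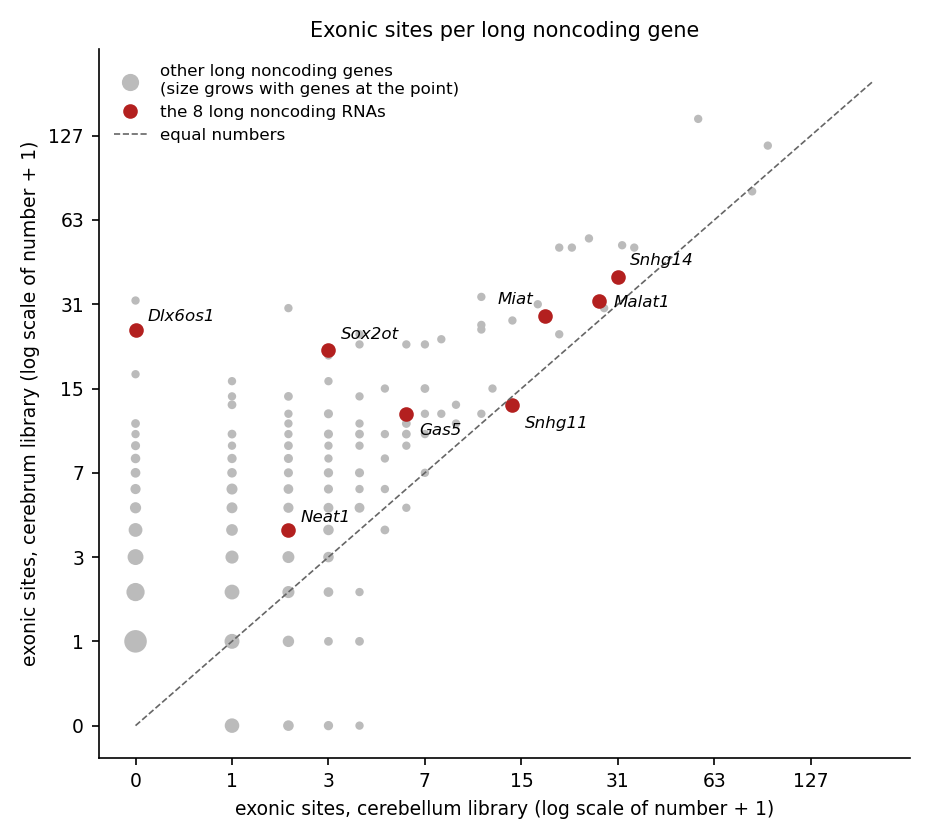
Exonic sites per long noncoding gene in the cerebellum (x axis) and the cerebrum library (y axis), on log scales of the number plus 1. Grey points are other genes and red points the 8 RNAs. Malat1, Miat, Snhg11 and Snhg14 lie near the line of equal numbers among the genes with most sites, and Dlx6os1 sits on the left edge with 0 and 25.

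A list of 25 other noncoding RNAs known from brain or as snoRNA hosts was counted whole. In the annotation were 24, of which 14 had sites in both lists, 5 in the cerebrum alone, 0 in the cerebellum alone and 5 in neither, and 18 had more in the cerebrum. The most sites were in Tug1 (93 in the cerebellum, 117 in the cerebrum, 85 in both), Kcnq1ot1, the imprinted antisense RNA of the Kcnq1 locus (56, 146 and 38), and Xist, the RNA that coats the inactive X chromosome (83, 80 and 63). All 3 exceeded each of the 8 in exonic sites. Among the snoRNA hosts of the list, Rian had 17 and 31 exonic sites, 13 of its 36 different positions at DRACH. Snhg1 had 1 and 8, Snhg17 1 and 10, and Snhg6 none. None of the listed exonic positions in Snhg1, Snhg3, Snhg12, Snhg17 and Zfas1 was at DRACH, while the only position in Snhg20 was.

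The gene most like each RNA, by the sum over the libraries of the absolute difference in log2 (exonic sites + 1), was noted as a description over 2 libraries. For Malat1 it was 1700020I14Rik with 28 and 30 sites, at a distance of 0.14. For Miat it was Rian, an imprinted snoRNA host, with 17 and 31 (0.22), and for Snhg14 C230004F18Rik with 32 and 51 (0.42). Sox2ot had Gm37928 with 3 and 20 (0.07) and Dlx6os1 Gm35040 with 0 and 32 (0.34). Snhg11 had Trerf1, which the annotation types as a processed transcript, with 12 and 15 (0.40). For Gas5 2 genes were tied, the first by name being AC127249.1 with 6 and 11 (0.12), and for Neat1 24 genes were tied at identical numbers, the first being 1110015O18Rik.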

How the data were processed

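Reads were aligned by the authors against mm10 and a PWK version of it, GLORI-tools made the calls, and the union per library was filtered on methylation rate and read count. The deposited lists give 1 genomic position with its strand per line. Every line named its own position correctly (0 failed). The file of the cerebrum library carries an abbreviation used for the cerebellum, and tissues follow the sample labels.

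Positions were looked up in GRCm38 with samtools 1.23.1 and pysam 0.24.0, and placed on GENCODE M21 models, which is not the release the authors used. Transcript positions refer to the longest spliced isoform. A second short Dlx6os1 model with 0 sites was left out. Folding used ViennaRNA 2.7.2, other steps Python 3.11.15 with numpy 2.4.6 and figures matplotlib 3.10.9. On simulated data, 400 of 400 sites on the 8 isoforms had motif and position recovered. The other long noncoding genes are those of the GENCODE long noncoding set, without positions in coding exons. Printed sequences were, per gene, up to 3 exonic DRACH sites in both libraries with most neighbours within 50 nt, and for Malat1 and Neat1 also sites outside DRACH and unlisted GGACT. Of the 25-gene list the 3 with most sites were to be named, and of the snoRNA hosts the names were chosen after their values were seen. The 8 genes and all lists were chosen with earlier results of these data known. Part of the forebrain marker list is not reported here.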

Additional observations from a re-analysis of the deposited data

How the results depend on the processing

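No paired analysis was possible because each tissue has 1 library. Of 58 recomputed values, 38 stayed within the interval (or 1.5 times the count) of the reported value and 20 did not. With exons only, the sites fell to 101 in the cerebellum and 174 in the cerebrum, the DRACH share rose to 62.4% and 51.7% and the shared part to 60.4% and 35.1%. Without soft-masked sequence the DRACH share was 54.0% and 40.4%, and among sites in both libraries 78.7%. At DRACH sites alone the shared part was 80.8% and 44.0%. The listed part of the DRACH adenosines was 4.62% and 6.72% on the longest isoforms, and 10.2% and 7.66% between the first and last listed site. Sites with a neighbour within 100 nt made up 60.0% and 72.1%, and within 25 nt 36.8% in the cerebrum. Without Malat1 and Neat1, 44.6% of the cerebellum sites lay in the 3′ part of 3 equal lengths. Leaving out sites with a copy in the gene, an alternative chosen after seeing the data, gave DRACH shares of 42.9% and 35.8%. With unknown depth, a missing site cannot be read as an unmethylated adenosine.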
